A study of Mus musculus with 24 samples.

Results

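A set of 9 genes for RNA-binding and translational control proteins of male germ cells were followed in the testes of NSun2 knock-out (KO) and wild-type (WT) mice: Dazl, Boll, Cpeb1, Pabpc1, Paip2, Ybx2, Ybx3, Ddx25 and Rnf17. They were found as the probes whose annotated symbol is one of these 9 names, 9 of 19057 named genes on the array. NSun2 methylates carbon 5 of cytosine in RNA. The 24 samples, 1 array each, were KO testes at 15 days, WT testes at 15 days, KO testes at 49 days and WT testes at 49 days, 6 samples in each of the 4 groups. All were F1 animals of a CBA by C57BL/6J cross. The KO samples came from 2 lines, one derived from the gene-trap embryonic stem cell line D014D11 and one carrying Nsun2tm1a(EUCOMM)Wtsi, and the labels do not assign a line to a sample. Whether 2 arrays can share an animal is not stated either: the p-values rest on the spread among samples, which may be technical. RNA came from the whole testis, so that fewer cells of a type and less RNA per cell cannot be told apart.

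Male germ cells transcribe many mRNAs long before the protein is made, because transcription stops while the spermatid nucleus condenses. Between synthesis and use, Y-box proteins coat and store the mRNA, proteins of the DAZ and CPEB families bind sites in its 3′ untranslated region, and the length of the poly(A) tail and the proteins on it set how well the mRNA is translated. Helicases and Tudor-domain proteins of germ cell granules act on the same stored RNA.

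The members had 18 probes, of which 17 were bright enough to be tested, and the gene's value is that of its brightest probe. Levels are log2 intensities after background correction and quantile normalization, and they are not comparable between probes. The Nsun2 probe was above background on 0 of 6 KO and 5 of 6 WT arrays of 15 days, a fall of at least 1.16-fold (limma adjusted p = 3.06e-04). At 49 days it was so on 0 of 6 KO and 3 of 6 WT arrays (at least 1.17-fold lower, adjusted p = 5.44e-05). Where this probe lies relative to the cassettes is not known here. Markers of testis cells were present, among them Sertoli genes, which were above background on all KO arrays for 8 of 8 genes at 15 days and 7 of 8 at 49 days. At 49 days the KO arrays stood apart from one another: the summed linear level of 6 round spermatid markers ran from 2138 to 34791 in KO and from 44706 to 56359 in WT, and that of 7 pachytene markers from 22983 to 154929 in KO and from 150056 to 168807 in WT. KO array D at 49 days was lowest in both, and the members' changes in KO at 49 days are given with and without it. At 15 days KO array B and WT array A carried elongating spermatid transcripts above the other arrays of that age.

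At 49 days, Dazl and Paip2 were higher in KO testes and Boll, Ybx2, Ybx3 and Ddx25 were lower, by between 2.10-fold (Ddx25) and 2.71-fold (Ybx2). Cpeb1, Pabpc1 and Rnf17 did not pass the test (limma, Benjamini-Hochberg adjusted p under 0.05 over all tested probes). Thus 2 of 9 members were higher and 4 lower, where 46.8% of the 12166 genes tested were higher and 26.5% lower. The median log2 change of the members was -1.01, against 0.30 over all genes tested. Without KO array D, 3 members were higher and 4 lower, with a median of -0.49, while 45.7% of all genes were higher and 25.3% lower. The fit shares 1 spread among the 4 groups, and KO arrays of 49 days spread more than WT arrays (Ddx25 SD 1.33 against 0.07). With the 12 arrays of 49 days fitted alone the log2 changes were the same, and 1 member was higher and 2 lower. Of the 22639 probes tested 13946 were called in that fit, against 15696. At 15 days, Ybx2 alone of the 9 passed and it was 3.91-fold lower in KO; 0 members were higher. Without KO array D of 49 days, which enters this comparison only through the shared spread, 3 members were lower at 15 days, where 4.03% of all genes tested were then higher and 7.98% lower. With all 24 arrays 1.1% of all genes tested at that age were higher and 3.59% lower, and the median log2 change was -0.35 for the members and 0.0043 for all genes.

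**Figure D1:**
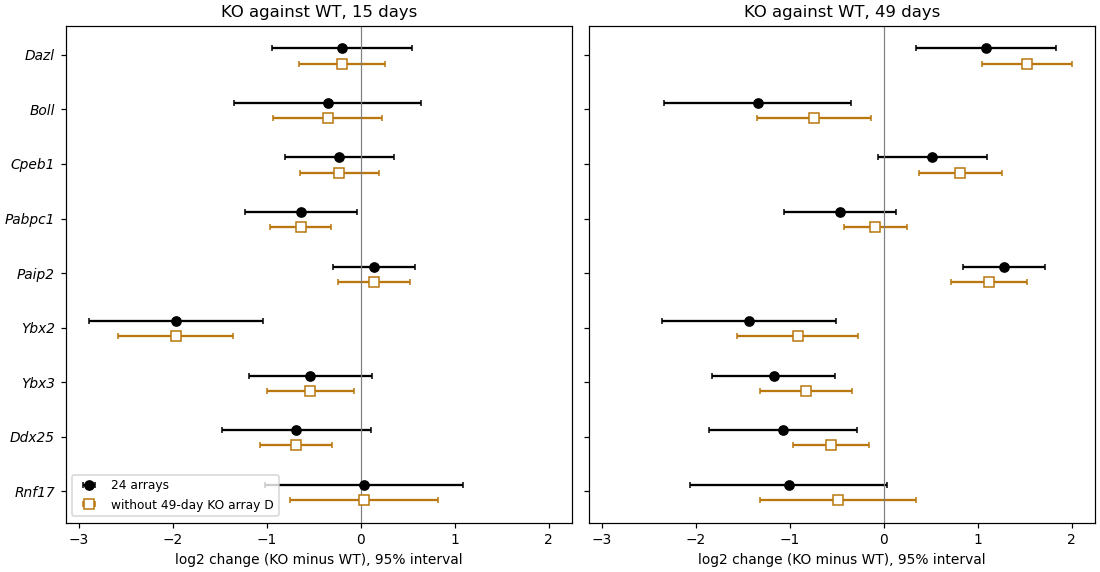
Log2 change of each member's brightest probe, KO minus WT, at 15 days (left) and at 49 days (right), with 95% intervals from the fit; filled circles use 24 arrays, open squares leave out KO array D of 49 days. The intervals rest on 1 spread shared by the 4 groups. At 15 days the Ybx2 interval, from -2.89 to -1.04, lies farthest from 0, and at 49 days Dazl and Paip2 lie right of 0 and Boll, Ybx2, Ybx3 and Ddx25 left of it.

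Dazl encodes a germ cell protein that binds U-rich sites in 3′ untranslated regions, recruits poly(A)-binding protein and promotes translation, and it is known from spermatogonia and early spermatocytes. Its level was 12.56, 13.25 and 13.46 (lowest, median and highest) in KO testes and 13.13, 13.30 and 13.69 in WT testes at 15 days. At 49 days it was 10.42, 12.93 and 13.68 in KO testes and 11.001, 11.70 and 11.81 in WT testes. Of the 6 KO arrays of 49 days, 5 lay above every WT array and array D lay below them all. The 49-day rise of Dazl in KO was 1.09 (SE 0.36, 2.13-fold, limma adjusted p = 0.0103), or 1.53 without array D (adjusted p = 8.97e-06). The call was not kept after cyclic loess normalization (0.48, adjusted p = 0.228), with the 12 arrays of that age fitted alone (adjusted p = 0.0571) or with the mean of its probes (0.61, adjusted p = 0.0799). Its second probe, which was above background on 4 of 6 KO and 3 of 6 WT arrays at 49 days, changed by 0.14 (adjusted p = 0.748; 0.47 without array D, adjusted p = 0.182). Of 5 markers of differentiating spermatogonia 3 were higher at 49 days, Kit (1.55), Stra8 (1.31) and Sohlh2 (0.92), while Sohlh1 (0.54) and Dmrtb1 (-0.11) did not pass. Of all genes tested 46.8% were higher at 49 days. At that age Stra8 was above background on 3 of 6 KO and 0 of 6 WT arrays, Sohlh2 on 5 and 1, and Dmrtb1 on none. The sizes of the Stra8 and Sohlh2 changes thus rest on WT signal at or near background. The other probe of Kit gave another call. The summed linear level of the 5 markers, which the brighter probes carry, ran from 2720 to 6706 in KO and from 1638 to 2321 in WT, and its part in the Dazl result was not tested. At 15 days Dazl did not pass (-0.20, adjusted p = 0.867).

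Boll encodes the member of the same family found in spermatocytes and spermatids; in the fruit fly its counterpart acts in entry into the meiotic divisions. Its single probe stood at 9.31, 9.81 and 9.89 in KO testes and at 9.23, 10.24 and 10.30 in WT testes at 15 days. The 49-day values were 6.37, 9.65 and 10.88 in KO testes and 10.47, 10.77 and 10.85 in WT testes. The WT arrays of 49 days lay close together. KO array A lay just above them, array F within their range and arrays B, C, D and E below it. In KO at 49 days Boll fell by 1.34 (SE 0.48, 2.53-fold, limma adjusted p = 0.0167), and fell by 0.74 without array D (adjusted p = 0.0306). The 12 arrays of that age fitted alone did not keep the call (adjusted p = 0.0774). At 15 days it did not pass (-0.35, adjusted p = 0.801), although 5 of 6 WT arrays lay above all KO arrays. So for Dazl and Boll, paralogues with related RNA-binding domains, the KO means of the brightest probes lay on opposite sides of the WT mean at 49 days. Single KO arrays did not all show this. On arrays A and F both genes lay above the WT mean (Dazl 1.17 and 0.61, Boll 0.17 and 0.12). On array D both lay below it (-1.11 and -4.35).

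Cpeb1 binds the cytoplasmic polyadenylation element and governs tail lengthening, and male mice without it lose germ cells in meiosis. Its single probe read 7.70, 7.93 and 8.40 in KO testes and 7.89, 8.20 and 8.42 in WT testes at 15 days. At 49 days it read 5.68, 7.05 and 8.54 in KO testes and 6.43, 6.71 and 6.74 in WT testes, with 5 of 6 KO arrays above every WT array. It was above background on 5 KO and 4 WT arrays of that age. The 49-day difference of 0.51 (SE 0.28, 95% interval -0.07 to 1.09) did not pass over 24 arrays (limma adjusted p = 0.106) and passed without array D (0.81, adjusted p = 0.00197). At 15 days it did not pass (-0.23, 95% interval -0.81 to 0.35). Its order over the 49-day arrays was like that of Dazl: arrays C and E were highest and array D lowest for both.

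Pabpc1 encodes the main cytoplasmic poly(A)-binding protein, which links the tail to the translation initiation complex. Its brightest probe stood at 12.33, 12.56 and 12.86 in KO testes and at 12.99, 13.19 and 13.61 in WT testes at 15 days, groups that did not overlap. The change of -0.64 (SE 0.29) did not pass over 24 arrays (limma adjusted p = 0.236). It passed with the 12 arrays of that age alone (adjusted p = 0.00521) and without KO array D of 49 days (adjusted p = 0.00910). At 49 days the values were 11.39, 13.47 and 14.14 in KO testes and 13.41, 13.71 and 14.05 in WT testes, with a difference of -0.46 (95% interval -1.06 to 0.13, adjusted p = 0.157), and -0.09 without array D. Without KO array A it passed (-0.64, adjusted p = 0.0466). The probes of Pabpc1 differed in their calls. At 15 days the values of the dimmer probes overlapped between KO and WT. Over 24 arrays these probes did not pass at that age (-0.51 and -0.45). Without KO array D of 49 days they did not pass either (limma adjusted p = 0.521 and 0.587). The second, which is dimmer, fell by 1.52 at 49 days (adjusted p = 0.0195), a call not kept without array D (-0.95, adjusted p = 0.0628). The third fell by 1.5 (adjusted p = 0.0122; -1.05 without array D, adjusted p = 0.0402). The brightest probe also passed, as lower in KO, under scale (-0.98) and cyclic loess normalization (-1.25, adjusted p = 0.00160).

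Paip2 encodes a repressor that displaces poly(A)-binding protein from the tail, and in mouse it limits poly(A)-binding protein in late spermatids; it is also made outside the germ line. Its single probe stood at 10.78, 11.33 and 11.81 in KO testes and at 10.73, 11.15 and 11.63 in WT testes at 15 days, with wide overlap (0.14, limma adjusted p = 0.818). At 49 days it stood at 9.88, 10.57 and 11.33 in KO testes and at 9.07, 9.27 and 9.66 in WT testes. Every KO array of 49 days lay above every WT array. The rise was 1.28 (SE 0.21, adjusted p = 2.09e-05), or 2.42-fold, and 1.12 without array D. On each of the 4 slides taken alone KO exceeded WT, by 1.25, 1.58, 0.96 and 1.11. Paip2 was the one member for which array D lay above the WT mean, at 2.04, the highest of the 6 KO arrays. The summed level of 8 Sertoli markers was higher at 49 days too, from 31849 to 106105 in KO and from 15078 to 21154 in WT. Among other markers tested, 4 of 5 Leydig, 3 of 3 peritubular myoid, 3 of 3 macrophage and 3 of 4 endothelial genes were higher. None of these was lower, and 46.8% of all genes tested were higher. The part of such markers in the Paip2 result was not tested. Paip2 passed at 49 days in the same direction under all 38 other settings, with values between 0.84 and 1.52.

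Ybx2 encodes the Y-box protein of meiotic and later germ cells that binds and stores mRNA. At 15 days its brightest probe stood at 8.22, 9.88 and 10.004 in KO testes and at 10.82, 11.34 and 12.34 in WT testes. All 6 KO arrays lay below all 6 WT arrays. Ybx2 fell by 1.97 (SE 0.45, limma adjusted p = 0.0122), and its second probe fell by 2.17 (adjusted p = 0.00544). The third probe, dim and above background on 0 of 6 KO and 3 of 6 WT arrays at that age, did not pass (adjusted p = 0.410). The brightest probe was called at 15 days under all 38 other settings, with adjusted p between 1.95e-05 and 0.0450. The summed level of the 7 pachytene markers at 15 days ran from 4687 to 10858 in KO and from 21933 to 58113 in WT, with 3 of the 7 above background on all KO arrays and 4 on all WT arrays, and Ccna1 and Adam2 on none; its part in the Ybx2 result was not tested.

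At 49 days Ybx2 stood at 10.39, 13.19 and 14.20 in KO testes and at 14.25, 14.44 and 14.54 in WT testes. The WT arrays were tightly grouped (SD 0.10) and every KO array lay below all of them, by a small margin on arrays A and F. It fell by 1.44 (SE 0.45, limma adjusted p = 0.00697), and by 0.92 without array D (adjusted p = 0.0124). Its other probes moved in the same direction, the second by -1.42 (adjusted p = 0.00655; -0.91 without array D) and the third, above background on 3 of 6 KO and 6 of 6 WT arrays, by -2.54 (adjusted p = 3.92e-04; -2.07 without array D).

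Ybx3 encodes a second Y-box protein, found in germ cells and in other tissues, that binds stored protamine mRNA in spermatids. Its brightest probe stood at 8.56, 8.94 and 9.47 in KO testes and at 9.10, 9.46 and 9.93 in WT testes at 15 days, with overlap and no call (-0.54, limma adjusted p = 0.407; adjusted p = 0.0375 with the 12 arrays of that age alone). At 49 days it stood at 9.71, 11.34 and 12.63 in KO testes and at 12.24, 12.65 and 12.90 in WT testes. KO arrays A and F reached the WT range and the other 4 lay below it. Ybx3 fell by 1.17 (SE 0.32, adjusted p = 0.00245), and by 0.83 without array D (adjusted p = 0.00385). The second probe changed by -1.70 (adjusted p = 0.00404; -1.18 without array D) and the third by -2.21 (adjusted p = 1.80e-04; -1.80 without array D).

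Ddx25 encodes a DEAD-box helicase of germ cells and Leydig cells that carries mRNA out of the nucleus and sits in the chromatoid body; in mouse it is needed for spermatids to elongate. Its single probe stood at 11.52, 11.93 and 12.25 in KO testes and at 12.22, 12.57 and 13.15 in WT testes at 15 days. KO arrays A and F lay just above the lowest WT array there, and the other 4 below all WT arrays. The change of -0.69 (SE 0.38) did not pass over 24 arrays (limma adjusted p = 0.367) and passed without KO array D of 49 days (adjusted p = 0.0189). At 49 days Ddx25 stood at 11.18, 13.97 and 14.77 in KO testes and at 14.74, 14.81 and 14.92 in WT testes. The WT arrays had an SD of 0.07, and KO arrays A and F lay within their range. It fell by 1.07 (SE 0.38, adjusted p = 0.0164), and by 0.56 without array D (adjusted p = 0.0155). The 12 arrays of that age fitted alone did not keep the call (adjusted p = 0.0713).

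Rnf17 encodes a RING-finger and Tudor-domain protein of germ cell granules that is needed for round spermatids to develop in mouse. At 15 days its brightest probe stood at 8.38, 8.89 and 9.48 in KO testes and at 7.55, 9.10 and 9.37 in WT testes, with a change of 0.03 (limma adjusted p = 0.992). At 49 days it stood at 4.83, 7.77 and 8.98 in KO testes and at 7.85, 8.49 and 8.81 in WT testes. The KO arrays fell apart: A, B and F lay at 8.74 or above, and C, D and E lay below every WT array. The difference of -1.01 (SE 0.51, 95% interval -2.06 to 0.04) did not pass (adjusted p = 0.0803; -0.49 without array D). It passed without KO array A, B or F, with adjusted p of 0.0267, 0.0238 and 0.0293, after cyclic loess normalization (-1.39, adjusted p = 0.0268) and with array weights (-1.68, adjusted p = 6.28e-07). The second probe did not pass either (-0.53, adjusted p = 0.143; -0.32 without array D), and the third was above background on no array.

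**Figure D2:**
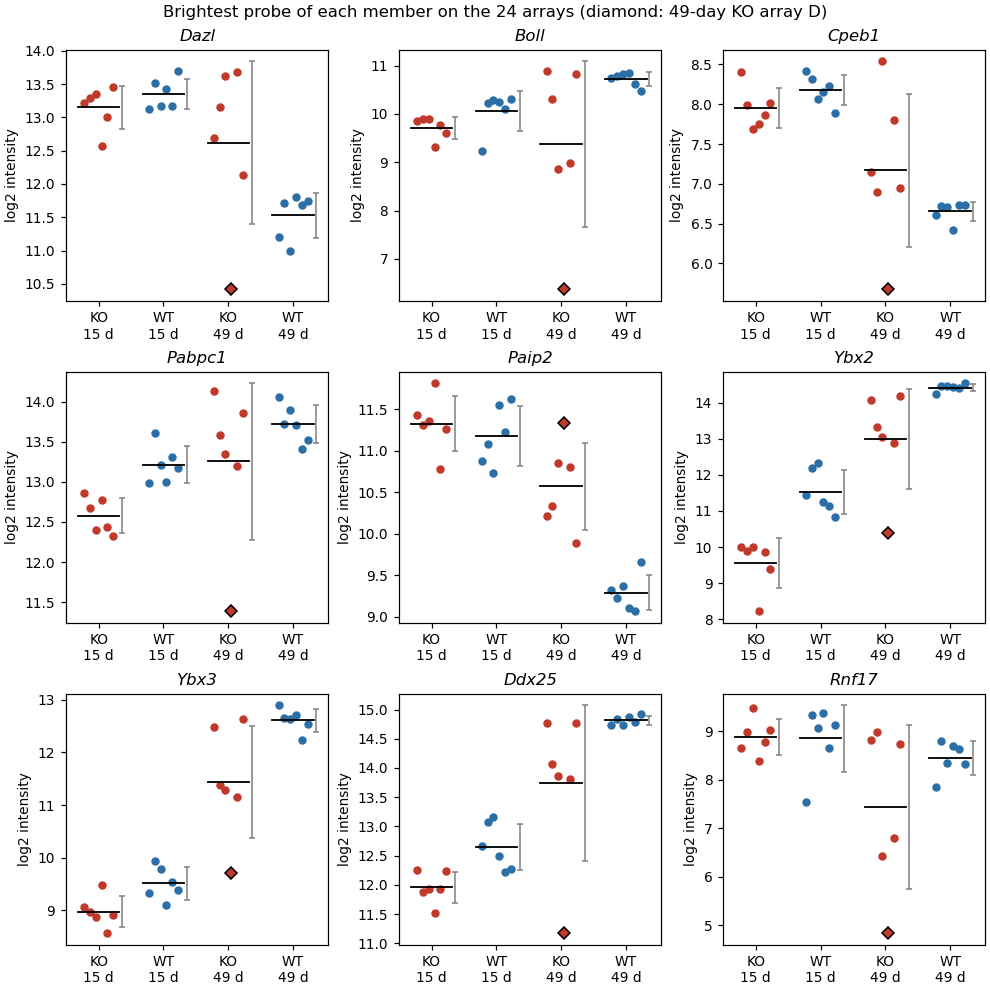
Log2 intensity of each member's brightest probe on the 24 arrays, in the order KO 15 days, WT 15 days, KO 49 days and WT 49 days; red points are KO arrays, blue points WT arrays, the diamond is KO array D of 49 days, black lines are means of 6 and grey bars SDs. Vertical scales differ between panels. The WT arrays of 49 days lie close together for Ddx25 (SD 0.07) and Ybx2 (SD 0.10), and the KO arrays of that age spread (SD 1.33 and 1.38).

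The KO effect differed between the ages for 2 of 9 members by the test of the difference itself, both higher at 49 days, with 36% of all genes tested higher and 16.9% lower in that contrast. For Paip2 the KO effect was 1.13 more positive at 49 days than at 15 days (SE 0.30, limma adjusted p = 0.00424; 0.98 without array D). For Dazl it was 1.29 more positive (SE 0.51, adjusted p = 0.0403; 1.73 without array D, adjusted p = 3.02e-04). The Dazl call was lost on leaving out any 1 of KO arrays D and E or WT arrays B, D and F of 15 days, or KO arrays B, C and E or WT arrays A and C of 49 days, with adjusted p up to 0.0806. It was lost as well after scale (0.96, adjusted p = 0.117) and cyclic loess normalization (0.64, adjusted p = 0.303), with the mean of its probes (0.74, adjusted p = 0.163) and without a filter on dim probes (adjusted p = 0.0723). The second Dazl probe gave 0.18 (adjusted p = 0.786). The other 7 did not pass over 24 arrays. Ybx2 showed 0.53 (95% interval -0.78 to 1.84), which does not show that its KO effect was the same at both ages, and without array D it was 1.05 (adjusted p = 0.0453). The second Ybx2 probe gave 0.75 (limma adjusted p = 0.321), or 1.25 without array D (limma adjusted p = 0.0183). The third, which is dim, had the opposite sign and did not pass (-1.60, limma adjusted p = 0.0956, and -1.13 without array D). The probes of Ybx2 thus did not give one direction. Cpeb1 (1.04, adjusted p = 0.00620) and Pabpc1 (0.55, adjusted p = 0.0476) also passed without that array. The third probe of Ybx3 gave -2.38 (adjusted p = 0.00461), against -0.64 for its brightest probe (adjusted p = 0.243); without array D these were -1.97 and -0.29.

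As the WT testis matured, Ybx3, Ybx2 and Ddx25 rose and Paip2, Dazl and Cpeb1 fell. The rises at 49 against 15 days were 3.10 for Ybx3 (SE 0.32, 8.60-fold), 2.90 for Ybx2 (SE 0.45, 7.45-fold) and 2.17 for Ddx25 (SE 0.38). On the same scale Paip2 changed by -1.89 (SE 0.21, 3.70-fold lower), Dazl by -1.82 (SE 0.36, 3.54-fold lower) and Cpeb1 by -1.53 (SE 0.28, 2.88-fold lower). For these 6 the limma adjusted p lay between 5.40e-09 and 6.98e-05. Boll (0.65, adjusted p = 0.216), Pabpc1 (0.50, adjusted p = 0.113) and Rnf17 (-0.41, adjusted p = 0.465) did not pass; without KO array D, Boll (adjusted p = 0.0364) and Pabpc1 (adjusted p = 0.00495) did. Over all genes tested 27.9% were higher at 49 days in WT and 55.2% lower, with a median of -0.58 (0.50 for the members). So 3 of 9 members were higher and 3 lower.

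In the KO testis the brightest probes of the same 3 genes rose between the ages. Ybx2 rose by 3.43 (SE 0.45, limma adjusted p = 8.36e-07; 3.95 without array D), Ybx3 by 2.47 (SE 0.32; 2.81 without array D) and Ddx25 by 1.78 (SE 0.38, adjusted p = 3.64e-04; 2.30 without array D). The third probe of Ybx3 did not pass in KO (0.47, adjusted p = 0.383; 0.88 without array D, adjusted p = 0.0465), where it rose by 2.85 in WT. Pabpc1 passed narrowly (0.68, adjusted p = 0.0489), and that call was lost on leaving out any single array other than KO array A of 15 days and KO array D of 49 days (adjusted p up to 0.144); without array D it was 1.05. Lower at 49 days were Rnf17 (-1.45, SE 0.51, adjusted p = 0.0176; -0.93 without array D, adjusted p = 0.0440) and Paip2 (-0.75, SE 0.21, adjusted p = 0.00392; -0.91 without array D). The Rnf17 call was lost after cyclic loess normalization (-1.04, adjusted p = 0.107) and with only the KO arrays fitted (adjusted p = 0.0738), and its second probe (-0.84, adjusted p = 0.0264) lost it without array D (adjusted p = 0.0672). Cpeb1 was lower too (-0.78, SE 0.28, adjusted p = 0.0203; -0.48 without array D), a call lost without KO array A of 15 days (adjusted p = 0.0504), with 3 arrays left out (adjusted p = 0.0741), with only the KO arrays fitted (adjusted p = 0.1002), after cyclic loess (-0.33, adjusted p = 0.285) and with array weights (-0.15, adjusted p = 0.389). The probes of Dazl differed in KO. Its second probe fell (-2.07, adjusted p = 4.12e-05; -1.74 without array D, adjusted p = 3.64e-05), as it did in WT (-2.26), and so did the mean of its probes (-1.30, adjusted p = 9.73e-04). Its brightest probe did not pass (-0.53, 95% interval -1.28 to 0.21; -0.09 without array D), and on arrays C and E it stood at 13.62 and 13.68, above all 6 KO arrays of 15 days. Boll did not pass either (-0.34, and 0.26 without array D). By the brightest probes 4 members were higher and 3 lower at 49 days in KO. Of all genes tested 24% were higher and 34.3% lower there, with a median of -0.18 (-0.34 for the members). The comparisons between ages and those between genotypes use the same arrays, so their values stand side by side and are not independent.

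**Figure D3:**
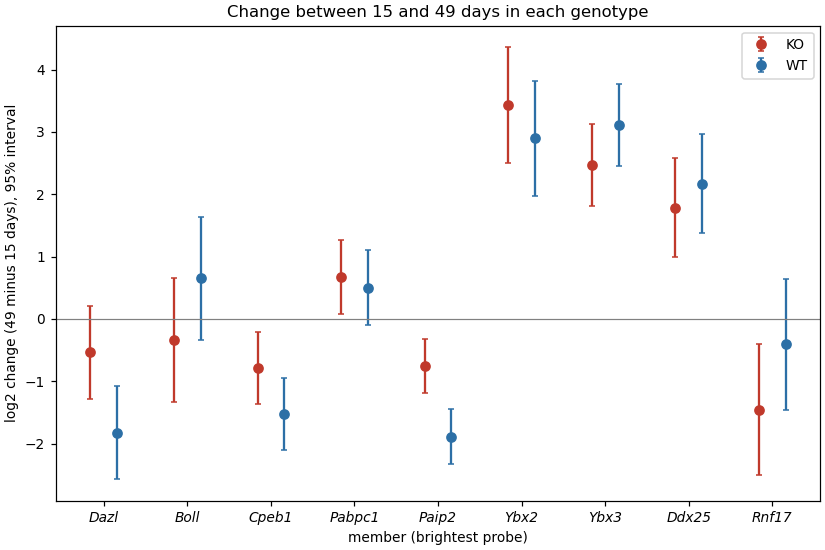
Log2 change between the ages (49 minus 15 days) of each member's brightest probe in KO (red) and WT (blue) testes, with 95% intervals from the fit to 24 arrays. Ybx2, Ybx3 and Ddx25 lie well above 0 in both genotypes, and Dazl and Paip2 lie lower in WT (-1.82 and -1.89) than in KO (-0.53 and -0.75).

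The start regions of genes that moved together are shown here for Ybx2, Ybx3 and Ddx25, which rose with age, and for Dazl, which fell in WT. Each line holds the 250 bases before the annotated start in RefSeq (build GRCm38.p6), 5′ to 3′ on the strand of the gene, and for Ybx2, which has 2 annotated starts, the more upstream one. In the lines that follow, capitals mark CCAAT, the core of the CCAAT box, and GGGCGG, the GC box bound by SP1-type factors, on either strand (ATTGG and CCGCCC when reversed).
Ybx2, chr11:69935649-69935898 (+ strand): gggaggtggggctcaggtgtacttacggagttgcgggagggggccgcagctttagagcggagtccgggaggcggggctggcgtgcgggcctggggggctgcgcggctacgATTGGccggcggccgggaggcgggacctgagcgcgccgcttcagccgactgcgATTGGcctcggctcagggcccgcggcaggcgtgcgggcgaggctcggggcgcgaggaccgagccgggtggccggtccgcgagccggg
Ybx3, chr6:131388451-131388700 (- strand): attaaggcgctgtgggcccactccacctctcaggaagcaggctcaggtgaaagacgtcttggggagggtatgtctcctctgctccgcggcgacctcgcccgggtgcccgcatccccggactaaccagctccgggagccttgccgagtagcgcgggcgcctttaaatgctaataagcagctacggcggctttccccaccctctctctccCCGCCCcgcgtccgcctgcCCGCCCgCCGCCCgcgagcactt
Ddx25, chr9:35558471-35558720 (- strand): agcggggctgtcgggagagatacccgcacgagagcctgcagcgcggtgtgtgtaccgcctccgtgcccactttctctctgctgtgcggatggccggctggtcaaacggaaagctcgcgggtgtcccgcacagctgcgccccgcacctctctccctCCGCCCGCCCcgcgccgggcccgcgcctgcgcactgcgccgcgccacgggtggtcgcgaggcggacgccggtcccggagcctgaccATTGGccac
Dazl, chr17:50293621-50293870 (- strand): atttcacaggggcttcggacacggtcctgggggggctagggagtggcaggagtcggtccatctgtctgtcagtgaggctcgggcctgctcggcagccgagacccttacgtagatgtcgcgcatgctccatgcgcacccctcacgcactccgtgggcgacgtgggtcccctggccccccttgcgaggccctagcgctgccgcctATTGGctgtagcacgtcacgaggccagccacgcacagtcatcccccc
The Ybx2 window held 2 CCAAT matches, whose first bases lay 140 and 87 bases before the start, and no GC box, while that of Ybx3 held 3 GC boxes and no CCAAT. The Ddx25 window held both motifs, with 2 GC boxes that overlap by 2 bases and a CCAAT at 9 bases before the start. In the Dazl window there was 1 CCAAT, at 47 bases before the start. Of the 9 members 6 matched the promoter table (not Pabpc1, Paip2 and Rnf17), in 8 windows: 4 of 8 held CCAAT and 6 of 8 the GC box, against 33.8% and 32.7% of all 32851 windows of that length. TATAAA was found in 1 of 8, upstream of Cpeb1 (12.4% of all windows), and the full cyclic AMP response element TGACGTCA in 0 of 8 (1.5% of all windows). The second Ybx2 start had 4 GC boxes before it and no CCAAT, so a GC box stood before at least 1 start of each of the 3 genes that rose. It stood also before Cpeb1 (4 matches), which fell, and before both starts of Boll, which did not pass. The member windows were 59.2% to 79.2% G and C, against a median of 52.4% over all windows. These matches describe the letters and were not tested as sites.

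The 6 KO arrays of 49 days, set against the WT mean of that age, ordered the members in different ways. On array D, 8 of 9 members lay below the WT mean, from -0.98 for Cpeb1 to -4.35 for Boll, and Paip2 lay above it. On arrays C and E, Dazl (2.09 and 2.15) and Cpeb1 (1.88 and 1.15) stood high while Rnf17 (-2.03 and -1.65) and Boll (-1.85 and -1.73) stood low. Array B had lower Ybx2 (-1.09) and Ybx3 (-1.22) but Rnf17 at 0.54, above the WT mean. Arrays A and F were within 0.42 of the WT mean for Boll, Pabpc1, Ybx2, Ybx3, Ddx25 and Rnf17, and both were above it for Dazl (1.17 and 0.61) and Paip2 (0.92 and 0.59). Over arrays A to F the mean of the round spermatid markers was -0.80, -2.17, -3.24, -4.61, -2.78 and -0.54 against the WT mean, that of the pachytene markers -0.08, -0.67, -0.89, -2.63, -0.999 and -0.04, and that of the Sertoli markers 0.71, 1.84, 2.17, 3.02, 2.18 and 0.71. The part of these in the members' values was not tested.

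**Figure D4:**
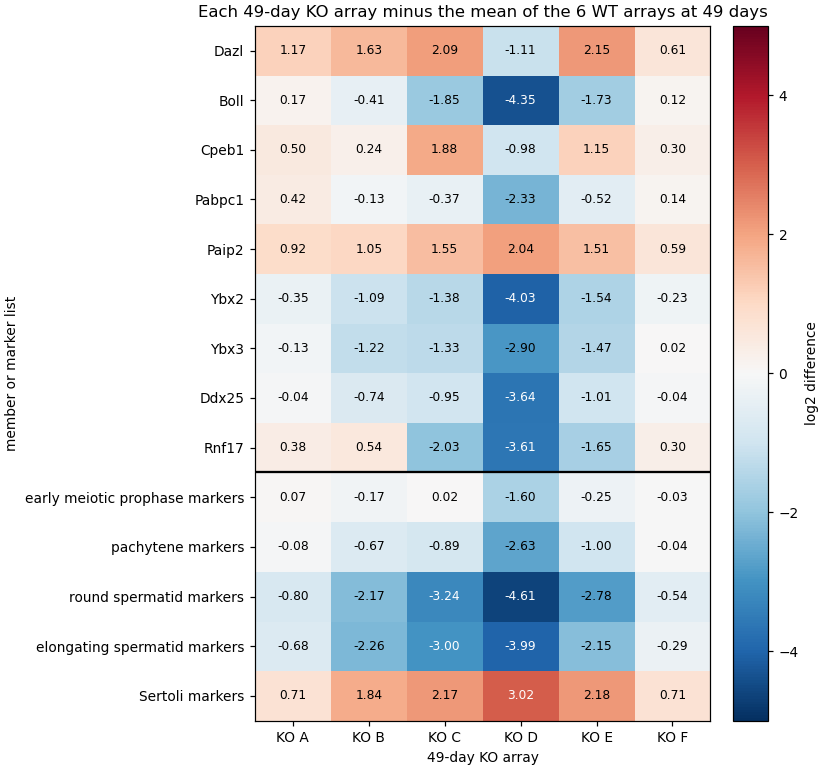
Log2 difference of each KO array of 49 days (columns A to F) from the mean of the 6 WT arrays of 49 days, for the 9 members (upper rows) and for the mean of 5 marker lists (lower rows); red is above and blue below the WT mean. Column D is blue for all members but Paip2, and columns C and E are red for Dazl, Cpeb1 and Paip2 and blue for the other 6.

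The 4 slides each held arrays of all groups, and the KO-minus-WT values within them bear on the same comparison. Each such value rests on 1 KO and 2 WT arrays or on 2 KO and 1 WT arrays. At 49 days Boll, Ybx2, Ybx3 and Ddx25 were lower in KO on all 4 slides by these means, with Ybx2 between -2.31 and -0.92. KO array A shared its slide with D, and F with E, so a KO array near WT was averaged with a lower one. Against the WT mean of that age, A and F lay at 0.17 and 0.12 for Boll and both at -0.04 for Ddx25. Dazl was higher on 3 slides (1.41, 2.16 and 1.90) and lower on the slide that holds KO arrays A and D (-0.19). Ybx2 at 15 days was lower on all 4, from -2.82 to -1.49.

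The genes whose brightest probe varied most like a member over the 24 arrays, after centring each on its mean, were named as a description. For Ybx2 it was Dnajc5g, with a root mean square difference of 0.18, then Dnaic1 with 0.26; the SD of Ybx2 itself over these arrays was 1.997. Paip2 lay nearest Ppp1cc (0.17) and Rab9 (0.17), Ybx3 nearest Ccdc173 (0.22) and Bag5 (0.26), and Ddx25 nearest Acot7 (0.21) and Igbp1b (0.22). Cpeb1 lay nearest Rad54l (0.22) and Mcm10 (0.25), Pabpc1 nearest Nxt1 (0.23) and Nup205 (0.24), and Boll nearest Taf9 (0.29) and Ift74 (0.29). Dazl was nearest Usp9y (0.29) and Nrip3 (0.30). Rnf17 had no such close companion: Ckap2 and Ddx5 came nearest, both at 0.44. Among the members themselves the nearest pairs were Dazl with Cpeb1 (0.43), Ybx3 with Ddx25 (0.54) and Boll with Pabpc1 (0.59).

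Other genes of translational control, 54 names in 6 role groups of which 47 were tested, were read beside the members. At 49 days 19 were higher in KO, 13 lower and 15 did not pass, with a median of 0.20, beside 46.8% higher and 26.5% lower of all genes tested. Without array D these were 21 higher and 13 lower, and the genes named here all kept their call; Papolb was then at -1.07, Fxr1 at -1.09, Cpeb2 at -1.24 and Ptbp2 at -1.25. At 15 days 1 was higher, the helicase gene Ddx6 of stored mRNA particles (0.69; its 3 further probes gave another call), and 3 were lower: Strbp, a spermatid RNA-binding protein (-0.97), Dazap1, a partner of DAZ proteins (-0.59), and Edc4, a scaffold of decapping (-0.56). One further probe of Strbp and one of Dazap1 gave another call. Of all genes tested 1.1% were higher and 3.59% lower at 15 days. Without KO array D of 49 days 1 was higher and 7 lower at 15 days, where 4.03% and 7.98% of all genes tested were.

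The counts of each role group at 49 days stand beside 46.8% higher and 26.5% lower of all genes tested. Among poly(A) tail proteins at 49 days, 3 of 7 were higher and 1 lower. Pabpc4, a second cytoplasmic poly(A)-binding protein, rose by 1.42 (SE 0.22), the translation activator Paip1 by 1.01 (SE 0.43) and Paip2b, the paralogue of Paip2, by 0.51 (SE 0.17), the last with another call at its other probe. Pabpc1l, above background on 0 of 6 KO and 6 of 6 WT arrays, was at least 2.45-fold lower (limma adjusted p = 9.63e-08). In the CPEB and cytoplasmic polyadenylation group 1 of 7 was higher, Cpeb3 (0.69), and 4 lower, among them Cpeb2 (-1.70), the testis poly(A) polymerase gene Papolb (-1.54) and the scaffold gene Sympk (-1.16); the second probes of Cpeb2 and Cpeb3 gave another call.

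In the group of Y-box and stored mRNA particles, 4 of 8 were higher and 1 lower, beside the same 46.8% and 26.5% of all genes tested. Lsm14a rose by 1.28 (SE 0.18), Ddx6 by 0.75 and Lsm14b by 0.72, all parts of repressed mRNA particles, while Ybx1, the general Y-box protein gene, fell by 0.65 (SE 0.15) along with Ybx2 and Ybx3; further probes of Ddx6, Lsm14b and Ybx1 gave another call. Of 11 other regulators that bind 3′ untranslated regions or shorten tails, 5 were higher, led by Fmr1 (1.09), Elavl1 (1.05) and the deadenylase gene Cnot7 (1.03), and 2 lower, Fxr1 (-1.55) and Msi2 (-1.33). A further probe of Elavl1 and of Cnot7 and all 4 of Msi2 gave another call. Among 7 spermatid mRNA-binding genes, Akap1 (-2.69, SE 0.43), Ptbp2 (-1.71) and Tarbp2 (-0.95) fell and Prkra (1.45) and Tsn (0.60) rose; the other probe of Ptbp2 gave another call. Of 7 genes of cap binding and initiation 4 were higher, led by the helicase genes Eif4a1 (1.40) and Eif4a2 (1.25) and by Eif4ebp1 (0.76), and 2 lower, Eif4b (-1.64) and Eif4e2 (-0.65). The other probe of Eif4b and one of Eif4a2 gave another call.

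**Figure D5:**
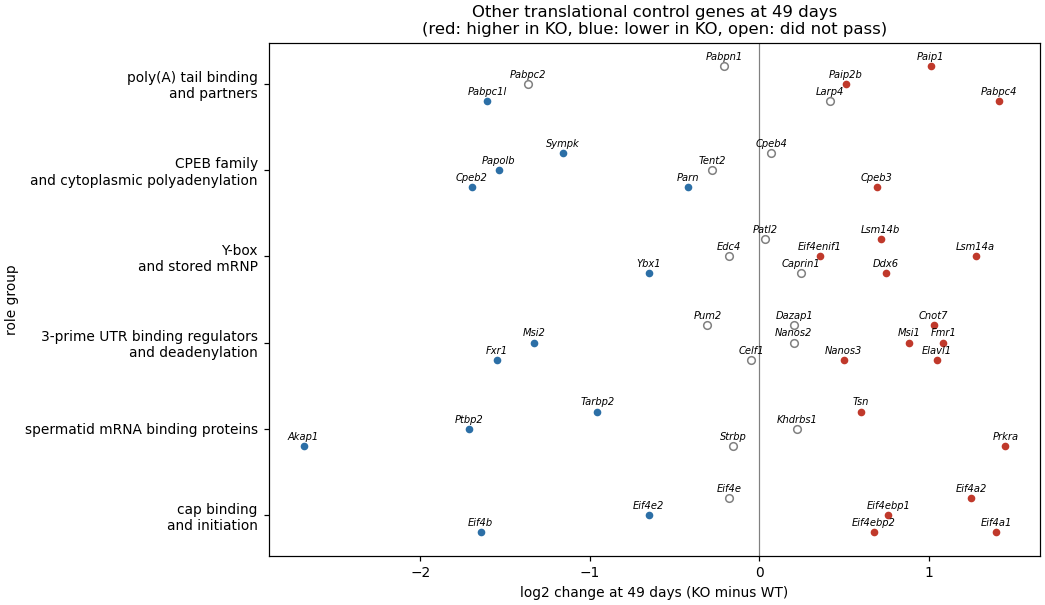
Log2 change at 49 days (KO minus WT) of the 47 other translational control genes tested, one point a gene in 6 role groups; red points passed as higher in KO, blue points as lower and open points did not pass. Akap1 (-2.69) lies farthest left and Prkra (1.45) farthest right.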

How the data were processed

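Per the labels' protocols, testis RNA of 24 mouse samples was turned into labelled complementary RNA (an Illumina TotalPrep kit) for 1-colour Illumina arrays. The deposited table holds the authors' bead intensity per probe, linear and not normalized (scanner software: not given in the sources used here). The authors also deposited a table of log2 values, which quantile normalization of log2 intensities gave to within 3.62e-05, so they carry no background correction; they served as an alternative.

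Intensities were normexp-corrected against 946 dim control rows (offset 16) and quantile normalized (limma 3.58.1, R 4.3.3). Median intensity per array was 223.9 to 278.7, and 16267 to 19051 probes per array were above background, defined as under 1% of the dim control rows as bright or brighter; the number of arrays limits the precision. The brighter 22639 of 45278 probes were tested (12166 genes). One model with 4 group means was fitted to 24 arrays (lmFit, eBayes, 20 residual degrees of freedom), two-sided, Benjamini-Hochberg over all tested probes, threshold 0.05; simulated data were used to test the script. Where a gene was above background on no array of a group, its fold is a bound against the lowest level above background. The log2 scale with an offset understates changes of dim probes. Gene names came from the platform annotation, updated by gene identifier: 34885 probes had 1 symbol, 18 several, and 10375 are unnamed here.

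The members, the gene lists and the tests were chosen with earlier results of these data known. Named genes were all members, Nsun2, and up to 3 passing list genes per role group and direction at each age, largest change first; likeness took the 2 other named genes with the smallest root mean square difference. Alternatives covered background, normalization, filter, samples fitted, slide, replicate letter, probe summary, array weights and each array left out.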

Additional observations from a re-analysis of the deposited data

Results flagged for a closer look

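The KO effect on Dazl was 1.29 higher on the log2 scale at 49 days than at 15 days, and that on Paip2 was 1.13 higher, each by the test of the difference between the ages. The Dazl call was lost in 14 of 37 other settings, with scale and cyclic loess normalization and the mean of its probes among them, and its second probe gave 0.18 (limma adjusted p = 0.786). At 49 days 5 of 6 KO arrays were above all WT arrays for Dazl and 6 of 6 for Paip2.

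A single array stood away from the others of its group in 5 of the 36 groups of 6 examined (9 members in 4 groups). For 1 group taken alone, chance gives about 1 in 20. The 9 members were read on the same arrays, so the 36 groups are not independent. The count of 5 can therefore not be set against that rate. The measure is the gap to the nearest array as a share of the group's range, set against the 95% limit of Dixon's test. KO array D of 49 days was low for Ddx25 (0.731; 11.18, nearest 13.81), Pabpc1 (0.659; 11.39, nearest 13.20) and Ybx2 (0.654; 10.39, nearest 12.88). KO array D of 15 days was low for Ybx2 (0.661; 8.22, nearest 9.40), and WT array A of 15 days was low for Boll (0.82; 9.23, nearest 10.11). The letter D at the 2 ages names different samples.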

How the results depend on the processing

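Each member's change was recomputed under 13 other settings, with each of the 24 arrays left out, and, as a setting chosen after seeing the data, with 3 arrays left out (KO array D of 49 days, KO array B and WT array A of 15 days). Of 342 values at 49 days (KO against WT), 324 kept direction and side of the threshold, 13 newly passed, 5 no longer passed and 0 turned sign. The count of members called at 15 days (1) became 4 with only the groups of the comparison, 4 with array weights and 2 with 3 arrays left out, and ran from 1 to 3 with single arrays left out (3 without KO array D of 49 days). The count at 49 days (6) became 3 with only the groups of the comparison. The count for the difference between the ages (2) became 1 without a filter on dim probes, 1 with the mean of the probes, 6 with array weights (3 higher, 3 lower) and 4 with 3 arrays left out, and ran from 1 to 5 with single arrays left out. The count for 49 against 15 days in KO (7) became 4 with only its own groups. Calls over all 22639 probes tested shifted as well. At 15 days 948 became 3847 with only the groups of the comparison, 4305 with array weights and 1426 with 3 arrays left out. At 49 days 15696 became 13946 with only the groups of the comparison. For the difference between the ages 11048 became 16852 with array weights and 10066 with 3 arrays left out. For 49 against 15 days in KO 13083 became 10544 with only its own groups. Fits with only the groups of the comparison left the log2 changes as they were and altered the estimate of the spread. The cause of the other shifts was not tested. Array weights ran from 0.077 to 7.24, highest for KO array E at 49 days.

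Signs turned in these cases, none of them past the threshold in the fit reported: Dazl in KO with age (0.37 with array weights), Boll in KO with age (0.29 with 3 arrays left out; -0.64 to 0.26 with single arrays left out), the difference between the ages for Pabpc1 (-0.39 after scale normalization, -0.66 after cyclic loess, -0.63 with the mean of the probes; -0.0025 to 0.55 with single arrays left out), for Ybx2 (-0.26 after cyclic loess, -0.11 with the mean of the probes) and for Ddx25 (0.11 with 3 arrays left out; -0.59 to 0.13), Rnf17 at 15 days (-0.25 with 3 arrays left out; -0.23 to 0.14) and Rnf17 in WT with age (0.38 after cyclic loess). Cyclic loess moved the median change of all tested probes at 49 days from 0.21 to -0.12.

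Arrays with the same letter in different groups correlated between -0.23 and 0.39 in their deviations from the group means (6 of 36 pairs over 0.1). Arrays with different letters correlated between -0.365 and 0.398 (36 of 180 pairs over 0.1). No pairing by letter was seen, which does not show that the letters have no such meaning. A replicate block, a fit paired by letter, called 1, 6, 2, 6 and 7 members in the 5 comparisons, as without it, and 1068 probes at 15 days and 15541 at 49 days, against 948 and 15696. The slide as a random block had a correlation of -0.03. The spread between 6 arrays, and signal near background for the second probes of Dazl and Rnf17 and the third of Ybx2, limit what could be detected.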
